A study of Gasterosteus aculeatus with 53 samples.

Results

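The 60 genes described here had their lowest brain level in Paxton limnetic females, while their levels in Paxton benthic and Priest limnetic females lay close together. Threespine sticklebacks of Paxton and Priest lakes, on an island off western Canada, occur as pairs of young species. The benthic species feeds near the lake bottom and the limnetic species in open water, and they mate largely with their own kind because females discriminate among courting males. Paxton limnetic females share their lake with Paxton benthic females and their way of life with Priest limnetic females, and the genes below set them apart from both. The identifiers carried no gene names, and 0 of them matched the reference table used. No role is given to any gene below, and the labelled tissue could not be checked against brain markers for the same reason.

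The study collected the fish of the 3 populations from their lakes and held them in the laboratory, where each ripe female met 1 stimulus fish. The stimulus was a male of her own species and lake (conspecific), a male of the other species of her lake (heterospecific) or a female of her own population (social control). Her brain was taken after the trial, and polyadenylated RNA of each brain gave 1 library. Age was not stated. Of 53 labelled libraries, 51 were kept: 18 Paxton limnetic (6 per treatment), 16 Paxton benthic (5 conspecific, 5 heterospecific and 6 social control) and 17 Priest limnetic (5 conspecific, 6 heterospecific and 6 social control). The study set aside the pair of conspecific libraries labelled Paxton benthic, trial 83, and Priest limnetic, trial 9, because they appeared to have been exchanged. Both are given separately below.

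Members were chosen from the counts. Each count was scaled by the total of its library to CPM, the usual depth-corrected count, and population means were taken of log2(CPM + 0.5) over the 51 kept libraries. Of 22456 genes in the table, 21798 had at least 1 count and 17565 reached a mean of 1 CPM. Paxton benthic and Priest limnetic means differed by less than 0.3 in 14151 of these. The score of a gene was the smaller of its 2 distances, Paxton benthic minus Paxton limnetic and Priest limnetic minus Paxton limnetic, and the 60 highest scores were kept. Differences between populations thus chose the genes, and they are given as a description and support nothing. In whole brains, fewer cells of a type and less RNA per cell cannot be told apart. CPM is not corrected for gene length, so levels are compared between libraries and not between genes.

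Scores ran from 0.45 to 1.54 with a median of 0.58, and 6 members scored at least 1. Mean differences on the log2(CPM + 0.5) scale ranged from -1.66 to -0.46 (median -0.63) for Paxton limnetic minus Paxton benthic and from -1.54 to -0.45 (median -0.61) for Paxton limnetic minus Priest limnetic. Over all genes with a mean of at least 1 CPM, the medians of these differences were 0.02 and 0.01. The median level of a member in Paxton limnetic libraries was typically 0.627 times its median in all other kept libraries, and in 13 members it was under 0.5 times. The module therefore joins a few large gaps to a long tail of modest ones.

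**Figure D1:**
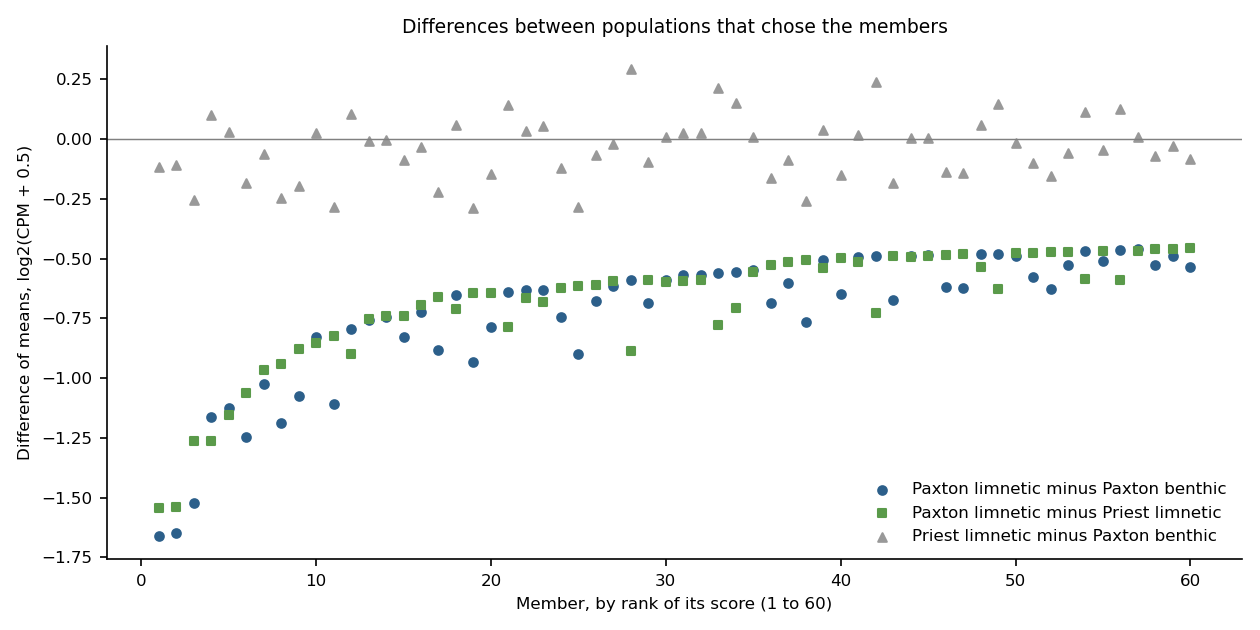
Differences of population means, log2(CPM + 0.5), for the 60 members in the order of their score, which these differences defined. Both Paxton limnetic differences lie between -1.66 and -0.45, and the Priest limnetic minus Paxton benthic differences between -0.29 and 0.29.

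The highest scores belonged to ENSGACG00000012456 and ENSGACG00000012441, at 1.54 each. ENSGACG00000012456 had 6.71 to 23.1 CPM (median 11.2) in Paxton limnetic libraries, against 19.3 to 53.5 CPM (median 39.2) in Paxton benthic and 12.5 to 73.1 CPM (median 33.4) in Priest limnetic libraries. One Paxton limnetic library, a conspecific one of trial 10, stood at 23.1 CPM, and the groups overlapped. In edgeR's quasi-likelihood fit over all genes, the log2 difference was -1.73 (SE 0.18, adjusted p = 2.73e-10) from Paxton benthic and -1.72 (SE 0.18, adjusted p = 4.70e-10) from Priest limnetic females. The rule chose the gene for such differences, so these values are descriptive. ENSGACG00000012441 stands in the row next to it in the table. In every library, ENSGACG00000012456 had 0.961 to 0.995 times the count of ENSGACG00000012441, and their deviations from group means correlated at r = 1.00 over 51 libraries. Reads of near-identical or overlapping genes may be shared in such counts, so the pair cannot be treated as separate observations.

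ENSGACG00000019292 (score 1.26) divided the Paxton limnetic libraries into low and high ones. Its count was 0 in 8 of the 18 Paxton limnetic libraries, which at 3 counts allows levels of up to 0.0688 to 0.0900 CPM, and 3 or fewer in 12 of them. The other 6 held 24 to 93 counts, or 0.701 to 2.27 CPM. These 6 were 1 conspecific, 2 heterospecific and 3 social control libraries. In comparison, Paxton benthic libraries ranged from 0.467 to 2.83 CPM (median 1.97) and Priest limnetic libraries from 0.625 to 3.06 CPM (median 1.29), and none had fewer than 17 counts. The gene was thus near or at 0 in most Paxton limnetic brains and at the level of the other populations in the rest. The log2 difference was -1.97 (SE 0.51, adjusted p = 0.00257, edgeR) from Paxton benthic and -1.70 (SE 0.50, adjusted p = 0.0186) from Priest limnetic females. Both values average over the low and the high libraries, and they too are descriptive.

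ENSGACG00000004703 (score 1.16) ranged from 0.0947 to 4.04 CPM (median 0.419) in Paxton limnetic libraries, against 0.328 to 8.32 CPM (median 0.922) in Paxton benthic and 0.335 to 8.49 CPM (median 1.83) in Priest limnetic libraries. Its levels spread widely in each population, and 8 of the 16 Paxton benthic libraries lay under the midpoint of the gene. The midpoint of a member is the middle, in log2, of its Paxton limnetic mean and the average of its other population means. ENSGACG00000000517 (score 1.13) had 4.10 to 19.3 CPM (median 9.54) in Paxton limnetic libraries, against 12.1 to 40.7 CPM (median 18.8) in Paxton benthic and 13.1 to 28.9 CPM (median 20.5) in Priest limnetic libraries. Its level was highest of all in the set-aside library labelled Paxton benthic, at 42.7 CPM.

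ENSGACG00000001569 (score 1.06) and ENSGACG00000001568 (score 0.97) also occupy adjacent rows. The first had 0 to 2.62 CPM (median 0.349) in Paxton limnetic libraries, against 0.856 to 3.51 CPM (median 1.78) in Paxton benthic and 0.826 to 3.23 CPM (median 1.44) in Priest limnetic libraries. The second had 0.106 to 2.63 CPM (median 0.362), against 1.65 and 1.58 CPM as the Paxton benthic and Priest limnetic medians. Their deviations from group means correlated at r = 0.77 over 51 libraries, but the count of ENSGACG00000001569 was 0 to 2.46 times that of ENSGACG00000001568, unlike that of the first pair. Most Paxton limnetic females were low for both genes, with a few at the level of the other populations.

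Other members separated more evenly. ENSGACG00000020469 (score 0.88) had 1.06 to 3.19 CPM (median 2.02) in Paxton limnetic libraries, against 2.15 to 7.05 CPM (median 5.26) in Paxton benthic and 1.83 to 7.37 CPM (median 4.19) in Priest limnetic libraries. For ENSGACG00000019517 (score 0.82), the ranges were 3.74 to 10.2 CPM (median 6.50) in Paxton limnetic, 11.2 to 17.4 CPM (median 13.8) in Paxton benthic and 5.81 to 17.4 CPM (median 12.2) in Priest limnetic libraries. Every Paxton limnetic library was therefore below every Paxton benthic one for this gene, while Priest limnetic libraries overlapped with them. ENSGACG00000010186 (score 0.75) was the member with 0 Paxton limnetic libraries over its midpoint, at 0.964 to 2.62 CPM (median 2.06), against 2.61 to 5.16 CPM (median 3.83) in Paxton benthic and 2.48 to 5.28 CPM (median 3.71) in Priest limnetic libraries. ENSGACG00000009979 (score 0.59) varied least among Paxton limnetic libraries, with an SD of log2 of 0.19. It had 5.03 to 8.53 CPM (median 6.48) there, against 8.52 to 11.9 CPM (median 9.93) in Paxton benthic and 7.71 to 11.9 CPM (median 10.3) in Priest limnetic libraries, so that the groups met only at their edges.

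**Figure D2:**
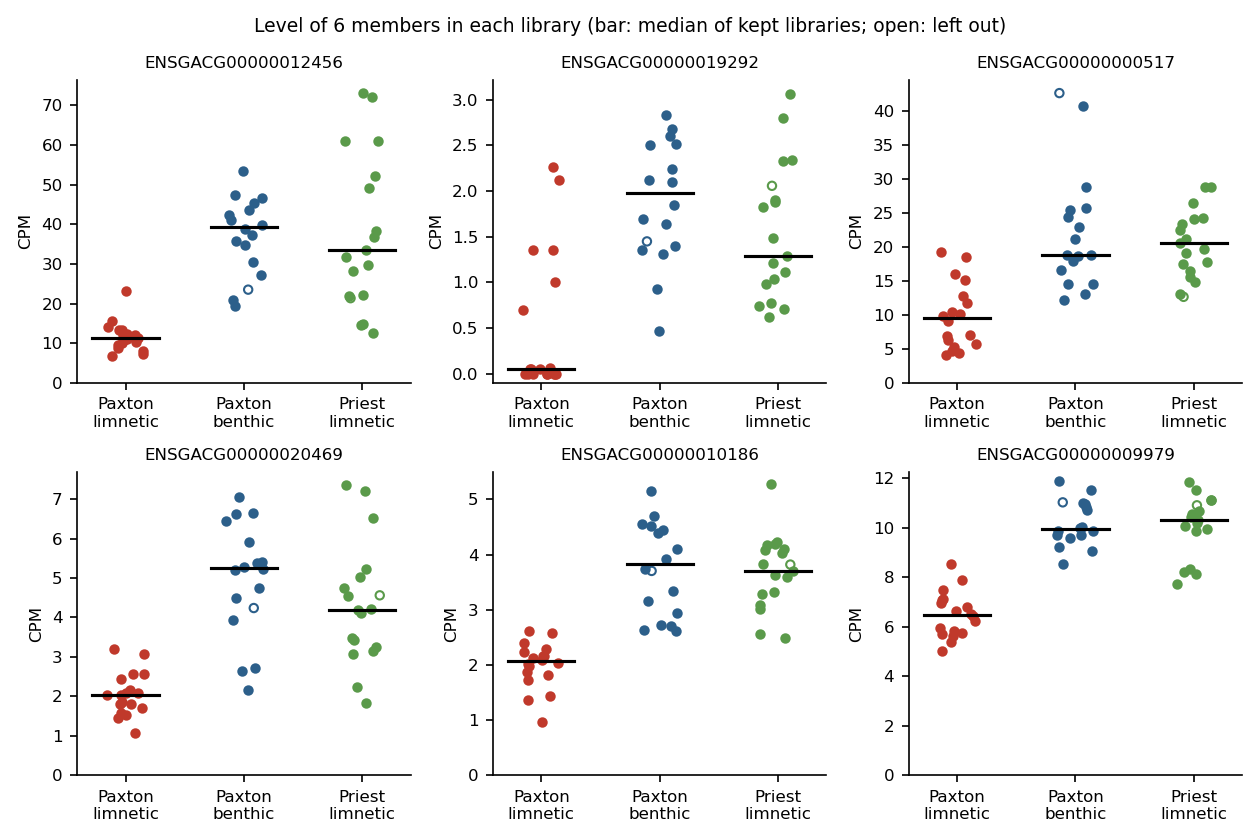
Level in CPM of 6 members in every library, by population. Points are libraries, bars are medians of the kept libraries, and open points are the set-aside libraries. The Paxton limnetic medians are 11.2, 0.0482, 9.54, 2.02, 2.06 and 6.48 CPM in panel order, each the lowest of its panel, and for ENSGACG00000019292 the Paxton limnetic libraries form a low and a high cluster.

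The remaining members among the 15 highest scores were ENSGACG00000007929, ENSGACG00000017443, ENSGACG00000019083, ENSGACG00000018964 and ENSGACG00000008834, with scores of 0.94, 0.83, 0.80, 0.74 and 0.74. ENSGACG00000007929 had a median of 3.70 CPM in Paxton limnetic libraries, against 6.99 CPM in Paxton benthic and 5.87 CPM in Priest limnetic libraries. ENSGACG00000019083 had medians of 0.474, 1.37 and 1.38 CPM in the same order. ENSGACG00000008834 spread widely in each population, from 1.08 to 14.1 CPM in Paxton limnetic, 3.18 to 17.4 CPM in Paxton benthic and 2.34 to 17.8 CPM in Priest limnetic libraries. A large score thus did not require a narrow distribution.

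Variation among Paxton limnetic females could itself set a score. ENSGACG00000003836 (score 0.57) had the widest Paxton limnetic spread, an SD of log2 of 1.33. Its Paxton limnetic levels ran from 15.6 to 995 CPM (median 543), against 211 to 1058 CPM (median 698) in Paxton benthic and 365 to 955 CPM (median 713) in Priest limnetic libraries. The lowest value was that of the heterospecific library of trial 70, and the next lowest was 193 CPM. Without trial 70, its score was 0.28 and its rank 214, outside the 60. ENSGACG00000019292 and ENSGACG00000015778 had the next widest spreads (0.94 and 0.84). After ENSGACG00000009979, the narrowest were ENSGACG00000006016 (0.20) and ENSGACG00000000015 (0.24). ENSGACG00000006016 had 13.7 to 21.2 CPM (median 17.7) in Paxton limnetic libraries, against medians of 24.2 CPM in Paxton benthic and 25.1 CPM in Priest limnetic libraries.

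At the threshold, the last members were ENSGACG00000005841, ENSGACG00000005170 and ENSGACG00000000015, with scores of 0.458, 0.458 and 0.454. The first genes outside were ENSGACG00000015674, ENSGACG00000007887 and ENSGACG00000011015, with scores of 0.448, 0.446 and 0.446. ENSGACG00000000015 had medians of 9.04 CPM in Paxton limnetic, 12.7 CPM in Paxton benthic and 13.1 CPM in Priest limnetic libraries, and ENSGACG00000015674 had 0.751, 1.47 and 1.39 CPM in that order. No gap in score divided members from other genes.

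All 60 members passed the filter on low counts and were among the 20011 genes tested. In edgeR, 57 were called lower against Paxton benthic females at an adjusted p under 0.1, where the share over all genes was 18.4%, and 53 were called lower against Priest limnetic females, where it was 9.05%. Lower in both comparisons were 53 members, against 3.09% of all genes. The rule used these contrasts, so nothing is read from the counts. The median fitted log2 difference over members was -0.72 from Paxton benthic and -0.73 from Priest limnetic females, beside 0.00565 and -0.00223 over all genes. Both comparisons share the Paxton limnetic libraries.

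A few members fell short of a call despite their score. ENSGACG00000013882, ENSGACG00000003836 and ENSGACG00000013918 were not called against Paxton benthic females (edgeR, adjusted p = 0.15, 0.244 and 0.207). Against Priest limnetic females, the same 3 genes and ENSGACG00000005929, ENSGACG00000015778, ENSGACG00000014415 and ENSGACG00000014893 were not called, with adjusted p of 0.121 to 0.369. In the third contrast, Priest limnetic minus Paxton benthic, 3 members were called, against 40.3% of all genes, a share the rule itself held down. They were ENSGACG00000006900 (log2 difference -0.35, adjusted p = 0.0363), ENSGACG00000019517 (-0.27, adjusted p = 0.0843) and ENSGACG00000005217 (-0.32, adjusted p = 0.0881), each lower in Priest limnetic females. With trial number as a covariate, 1 member was called in this contrast. Calls over all 20011 genes tested went from 8062 to 7331 with that covariate.

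No member had every Paxton limnetic library below every other kept library, and neither did any of the 17565 genes (0%). The typical member had 4 of 18 Paxton limnetic libraries over its midpoint, 3 of 16 Paxton benthic and 4 of 17 Priest limnetic libraries under it. Counted by library, 5 to 25 members (median 13) were over their midpoint in Paxton limnetic libraries, against 37 to 57 (median 48) in Paxton benthic and 35 to 54 (median 46) in Priest limnetic libraries. The ranges did not overlap, which follows from how members and midpoints were set.

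The pair of set-aside libraries had no part in the rule. The one labelled Paxton benthic, trial 83, had 50 of 60 members over their midpoint, and the one labelled Priest limnetic, trial 9, had 43. Both lay inside the range of kept libraries from these populations and outside that of the Paxton limnetic ones. The ranges of Paxton benthic and Priest limnetic libraries overlap, so these counts do not tell the labels of the pair apart. In 28 members the trial 83 library exceeded every Paxton limnetic library, as did the trial 9 library in 15. The share over all genes was not computed, and members were chosen as low in Paxton limnetic libraries. Nothing is read from these counts.

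**Figure D3:**
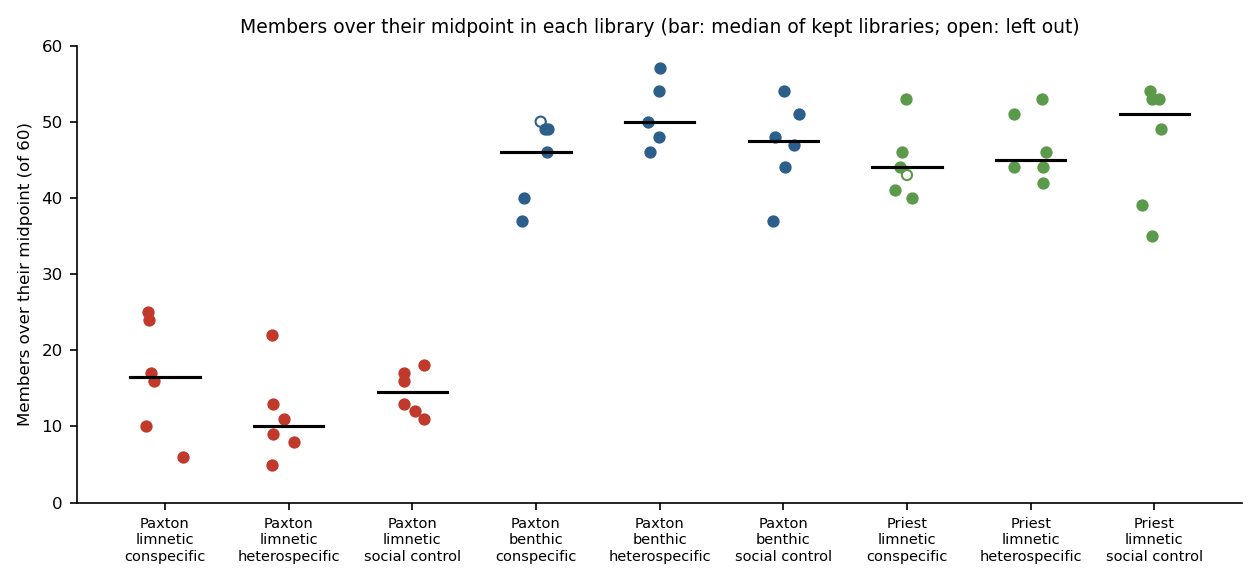
Number of the 60 members over their midpoint in each library, by population and treatment. Points are libraries, bars are medians of kept libraries, and open points are the set-aside libraries at 50 and 43. Paxton limnetic libraries lie at 5 to 25 and all others at 35 to 57.

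Members were more often low in level and more variable than other genes. A mean of 1 to 2 CPM was found for 16 members (26.7%), against 6.26% of all genes with at least 1 CPM, and a mean over 20 CPM for 15 members (25.0%), against 53.0% of all. The median SD of log2 among Paxton limnetic libraries was 0.46 over members and 0.20 over all genes. The contrast held for members over 20 CPM (0.45, against 0.17 over all genes at that level) and for those at 1 to 2 CPM (0.60, against 0.35). Outside the Paxton limnetic libraries, at over 20 CPM, the medians were 0.36 over members and 0.19 over all genes in Paxton benthic, and 0.40 and 0.19 in Priest limnetic libraries. At 1 to 2 CPM, the distance was smaller, with 0.50 over members and 0.35 over all genes in Paxton benthic, and 0.46 and 0.41 in Priest limnetic libraries. These are descriptions of the genes that the rule selected.

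Deviations from the 9 group means linked some members to each other. Over 1770 pairs, the median correlation was r = 0.06 across 51 libraries, and 30 members reached r of 0.5 with no other member. Joining members with r of at least 0.6, as 33 pairs (1.86%) had, gave 4 linked groups that held 22 members, of 14, 4, 2 and 2. The share of such pairs over all genes was not computed, so the linkage is not shown to be particular to members. The 2 groups of 2 were the adjacent pairs described above. All points share library depth and the division by total counts, and these correlations are descriptive.

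The group of 14 included ENSGACG00000006034, ENSGACG00000010148, ENSGACG00000017151, ENSGACG00000005841, ENSGACG00000010186, ENSGACG00000018516 and ENSGACG00000020653. Its pairs had r of 0.14 to 0.80 (median 0.54). Of its 14 members, 0 to 11 (median 3.5) were over their midpoint in a Paxton limnetic library, against 3 to 14 (median 13) in Paxton benthic and 3 to 14 (median 13) in Priest limnetic libraries. That its members varied together from female to female within groups follows from the linking, which chose them for it. ENSGACG00000006034 had 813 to 3686 CPM (median 2063) in Paxton limnetic libraries, against 2186 to 5167 CPM (median 2862) in Paxton benthic and 1506 to 4462 CPM (median 3154) in Priest limnetic libraries. ENSGACG00000010148 had medians of 1353, 2286 and 2084 CPM in the same order.

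The group of 4 was ENSGACG00000009622, ENSGACG00000013882, ENSGACG00000006837 and ENSGACG00000013918, with r of 0.52 to 0.77 (median 0.64). Between it and the group of 14, r ranged from -0.35 to 0.54 (median 0.15). Without either group or the adjacent pairs, 38 members remained, of which 5 to 12 were over their midpoint in Paxton limnetic libraries, against 22 to 36 in Paxton benthic and 24 to 35 in Priest limnetic libraries. The rule fixed that order.

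**Figure D4:**
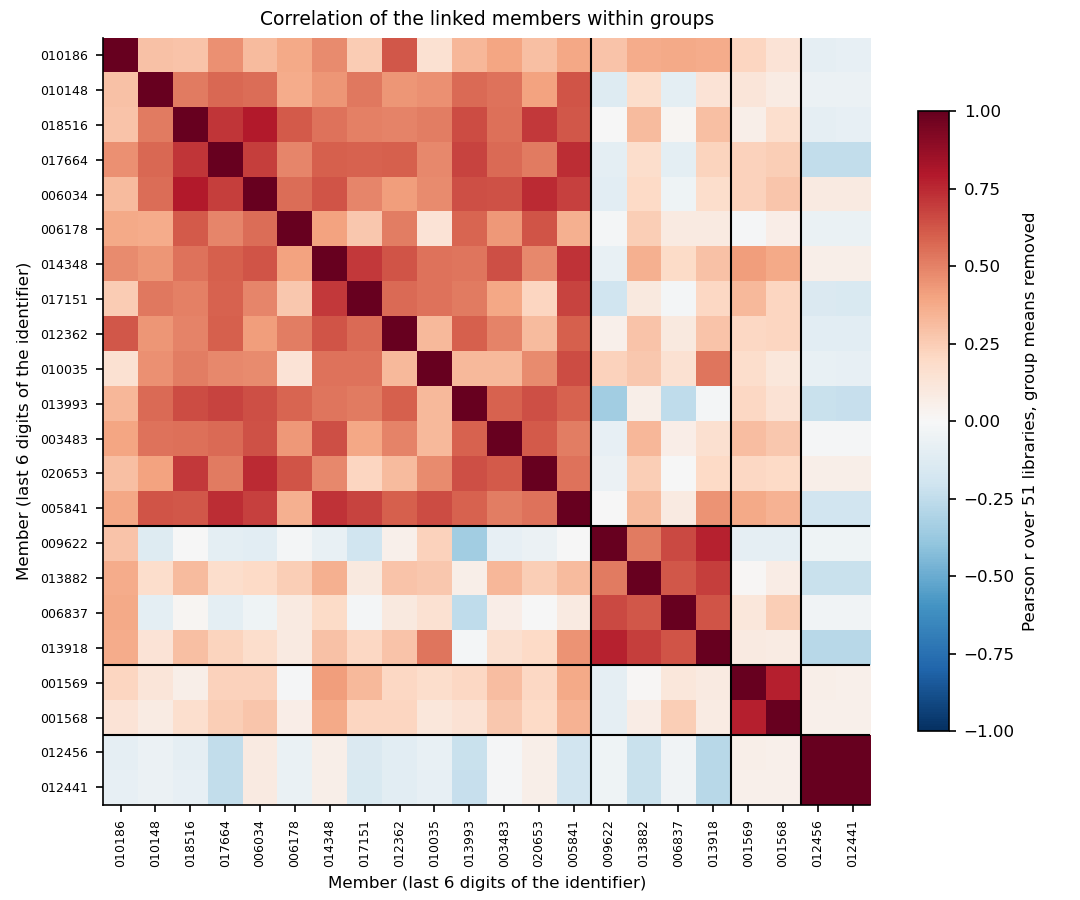
Pearson correlation between the 22 linked members over 51 libraries after group means were removed, on a colour scale from -1 to 1, with black lines between the 4 linked groups. The block of 14 at the top left has a median r of 0.54, the block of 4 a median of 0.64, and their shared rectangle a median of 0.15.

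Position in the deposited table was examined as a substitute for position in the genome, which was not used here. Row order was not stated to follow the chromosomes. Of 56 members with an adjacent row of at least 1 CPM, 10 (17.9%) reached r of 0.7 with such a neighbour, against 7.52% of genes with a neighbour. For example, ENSGACG00000013918 had r = 0.89 with ENSGACG00000013902, and ENSGACG00000000517 had r = 0.84 with ENSGACG00000000515. The 10 include both genes of each of the 2 adjacent pairs of members, which are not separate observations. Members also varied more than other genes, so nothing is read from the higher share. Within 5 rows of a member, 23 of 529 other tested genes (4.35%) were lower in Paxton limnetic females in both comparisons, against 2.83% of all genes that are no members. One of them, ENSGACG00000009973, lies next to ENSGACG00000009979 and had fitted log2 differences of -2.34 from Paxton benthic and -2.79 from Priest limnetic females. Its mean of 0.786 CPM was under the minimum of the rule. Its Priest limnetic minus Paxton benthic difference of means, 0.36, was also over the allowed distance of 0.3. The row windows were chosen after the data had been seen, and neighbours may share reads.

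Treatment was not part of the rule, which pooled the 3 treatments of a population. A low level in 1 Paxton limnetic treatment, or a high one in 1 treatment of another population, could still raise a score. Treatment differences of members are therefore not independent of the rule. Members had their lowest mean of log2(CPM + 0.5) in Paxton limnetic females in 56 of 60 cases among conspecific, 59 among heterospecific and 55 among social control libraries, and in all 3 treatments in 51 cases. This held for 7.30% of all genes with at least 1 CPM, and the rule favoured it. For most members, Paxton limnetic females were lowest with each stimulus.

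Comparisons of treatments within Paxton limnetic females called 0 members in edgeR. For conspecific against social control, the share called over all genes was 0.075%, and 3 members had an unadjusted p under 0.05 (2.85% of all genes). For heterospecific against social control, it was 0% of genes, with 10 members under 0.05 (16.7%, against 4.45% of all genes), 8 of them lower in heterospecific females. For conspecific against heterospecific, it was again 0%, with 11 members under 0.05 (18.3%, against 6.60% of all genes), all higher in conspecific females. These unadjusted values come from linked genes and are not separate observations. The rule favoured genes with low values in any Paxton limnetic treatment, so nothing is read from their excess over all genes. DESeq2 called 3 members in the last contrast, ENSGACG00000020653, ENSGACG00000001568 and ENSGACG00000001569, at adjusted p of 0.00405, 0.0155 and 0.0176, and 44 of 21723 genes over all (0.203%).

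ENSGACG00000020653 was the nearest to a call within Paxton limnetic females. It had 4.02 to 12.4 CPM (median 6.72) in conspecific libraries, against 2.52 to 4.71 CPM (median 2.61) in heterospecific libraries, with 2.03 to 7.99 CPM (median 4.79) in social control libraries. Of the heterospecific libraries, that of trial 30 overlapped with the conspecific ones. The log2 difference between conspecific and heterospecific females was 1.27 (SE 0.25), at an adjusted p of 0.130 in edgeR. It ran from 1.03 to 1.43 over 55 alternatives with adjusted p of 0.00405 to 0.337, and 11 alternatives were past the threshold. In contrast, its conspecific mean was 6.37 ± 1.92 CPM against 7.02 ± 2.15 CPM in heterospecific libraries of Paxton benthic females (SD, n = 5 each). Among Priest limnetic females, it was 6.21 ± 2.06 CPM (SD, n = 5) against 7.96 ± 0.95 CPM (SD, n = 6). The test of the difference between populations gave log2 1.62 (SE 0.37, adjusted p = 0.379, edgeR) for Paxton limnetic minus Priest limnetic and log2 1.40 (SE 0.37, adjusted p = 0.457) for Paxton limnetic minus Paxton benthic. For Paxton limnetic minus Priest limnetic, the adjusted p was 0.0691 in DESeq2 and 0.0748 in edgeR without trial 30. ENSGACG00000020653 was not low in conspecific Paxton limnetic libraries, at a mean of 7.30 ± 2.95 CPM (SD, n = 6). Its Paxton limnetic means were 3.08 ± 0.88 CPM in heterospecific and 4.84 ± 1.91 CPM in social control libraries (SD, n = 6 each). Those low values raised its score, so its treatment difference and its interactions are not independent of the rule.

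The adjacent pair of ENSGACG00000001569 and ENSGACG00000001568 and several of the group of 14 had differences in the same direction. None of them was called in this contrast in edgeR over the 51 libraries. ENSGACG00000001569 had 0.0919 to 2.62 CPM (median 0.853) in conspecific Paxton limnetic libraries, against 0 to 0.505 CPM (median 0.201) in heterospecific ones, a log2 difference of 2.22 (SE 0.53) at an adjusted p of 0.156 in edgeR. ENSGACG00000006034 had 1698 to 3686 CPM (median 2644) in conspecific Paxton limnetic libraries, against 813 to 2685 CPM (median 1350) in heterospecific ones (log2 difference 0.88, SE 0.26, adjusted p = 0.329). The highest heterospecific value was again that of trial 30, which was also the heterospecific Paxton limnetic library with most members over their midpoint, 22 of 60. Of the 14 linked members, 11 had their lowest Paxton limnetic treatment mean in heterospecific females, against 4 in Paxton benthic and 0 in Priest limnetic females. These 14 were joined by their correlation and are not separate observations, and 9 of them were lowest in social control among Priest limnetic females. Of the 38 members in no linked group, 13 had their lowest Paxton limnetic mean in heterospecific females. The share over all genes was not computed. Without trial 30, edgeR called 7 members in the conspecific against heterospecific contrast, all higher in conspecific females, of which 5 belonged to the group of 14. The same fit called 76 of 20002 genes (0.38%). No call is made from this, since edgeR gave none over the 51 libraries and the calls moved with the library left out.

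Within Paxton benthic females, 1 member was called in any treatment contrast. ENSGACG00000013918 had 744, 747, 1206, 1610 and 1781 CPM in heterospecific libraries, against 283 to 539 CPM (median 330) in social control libraries. All heterospecific libraries were above all social control ones and above the conspecific ones, which had 209, 355, 407, 536 and 643 CPM. The log2 difference between heterospecific and social control females was 1.78 (SE 0.37, adjusted p = 0.0618, edgeR), where 0.03% of all genes were called. Over 55 alternatives, the difference stayed between 1.60 and 1.93 and the adjusted p between 0.00871 and 0.294, with 46 alternatives past the threshold. It was lost with trial number as a covariate (adjusted p = 0.114) and without any one of 8 Paxton benthic libraries, those of trials 14, 39, 82, 84, 85, 89, 90 and 91.

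The same gene did not show that order elsewhere. Paxton limnetic females had 118 to 481 CPM (median 272) in heterospecific libraries, against 241 to 697 CPM (median 477) in social control libraries, and Priest limnetic females had 361 to 1050 CPM (median 543) against 295 to 1271 CPM (median 844). The interaction for ENSGACG00000013918, conspecific minus heterospecific in Paxton limnetic minus Paxton benthic females, was a log2 of 2.33 (SE 0.52) at an adjusted p of 0.374 in edgeR and 0.0989 in DESeq2. Its linked partner ENSGACG00000009622 had 22.0, 27.8, 46.6, 55.2 and 70.8 CPM in heterospecific Paxton benthic libraries, against 9.83 to 24.3 CPM (median 14.0) in social control ones (log2 difference 1.57, SE 0.40, adjusted p = 0.279). Its heterospecific Paxton limnetic libraries had 4.68 to 13.0 CPM (median 11.1). Its interaction in the same test was a log2 of 2.09 (SE 0.58, adjusted p = 0.521, edgeR). ENSGACG00000013918 averaged 308 ± 143 CPM in heterospecific Paxton limnetic females (SD, n = 6) against 1218 ± 479 CPM in heterospecific Paxton benthic females (SD, n = 5). The conspecific means were 535 ± 334 CPM in Paxton limnetic and 430 ± 167 CPM in Paxton benthic females (SD, n = 6 and 5), and the social control means were 459 ± 183 CPM and 356 ± 93.2 CPM (SD, n = 6 each). Of the 3 treatments, its Paxton limnetic mean was below its Paxton benthic mean in the heterospecific one alone. The high heterospecific Paxton benthic values thus raised the score of ENSGACG00000013918. The call of ENSGACG00000013918 within Paxton benthic females and its interaction use the same values and are not independent of the rule. Heterospecific means of ENSGACG00000009622 were 10.1 ± 3.17 CPM in Paxton limnetic and 44.5 ± 20.0 CPM in Paxton benthic females (SD, n = 6 and 5). Its conspecific means were 15.8 and 16.5 CPM, and its social control means 16.0 and 15.0 CPM, in the same order. The heterospecific values likewise raised its score, so its interaction is not independent of the rule either.

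**Figure D5:**
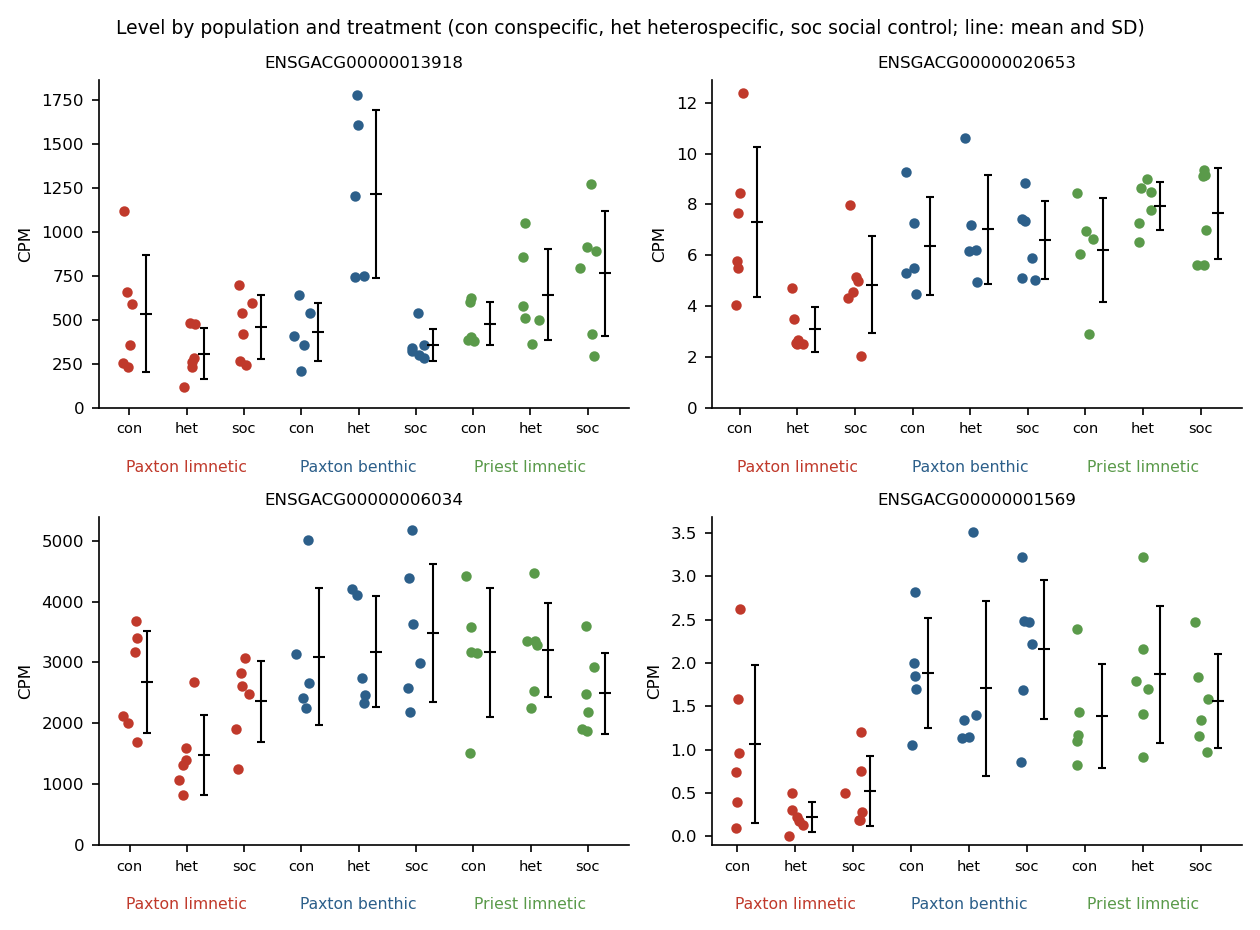
Level in CPM of 4 members by population and treatment. Points are the kept libraries, and lines give the mean and SD of each group of 5 or 6. ENSGACG00000013918 stands at 744 to 1781 CPM in heterospecific Paxton benthic females, and all 4 members have their lowest Paxton limnetic mean in the heterospecific treatment. Over all members, 30 of 60 had their lowest Paxton limnetic treatment mean there.

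In Priest limnetic females, edgeR and DESeq2 each called 0 members in the 3 contrasts, where 0.02%, 0% and 0.005% of all genes were called in edgeR for conspecific against social control, heterospecific against social control and conspecific against heterospecific. In the same order, DESeq2 called 51 of 20893, 31 of 21723 and 24 of 21723 genes. At an unadjusted p under 0.05 in edgeR there were 2, 4 and 1 members, where 4.66%, 7.7% and 3.34% of all genes fell under that value. In Paxton benthic females, conspecific against social control had 1 member under that value (5.82% of all genes, with 0.00999% called), and conspecific against heterospecific had 6 (7.45% of all genes, with 0.015% called). Heterospecific against social control also had 6, all higher in heterospecific females, where 3.77% of all genes did. Of the 4 tests of whether a treatment difference varied between populations, none called a member in edgeR. The shares called over all genes were 0%, 0%, 0.00999% and 0%, and 1, 12, 4 and 11 members had an unadjusted p under 0.05. The counts of 12 and 11 (20.0% and 18.3% of members) were those for conspecific minus heterospecific against Paxton benthic and Priest limnetic females. There, 6.57% and 6.54% of all genes fell under that value, and the counts of 1 and 4 stood beside 2.54% and 4.35%. Here too the rule could favour such differences, and nothing is read from these counts.

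Trial number, as the labels give it, was tested as a slope within the 9 groups. It called 8 members (13.3%), against 17.6% of all genes, and 9 had an unadjusted p under 0.05 (15.0%, against 25.6%). Among the called members, the largest positive slope was that of ENSGACG00000000222, at a log2 of 0.14 per 10 trials (SE 0.04, adjusted p = 0.0101, edgeR), and ENSGACG00000000015 had the smallest adjusted p (0.09 per 10 trials, SE 0.02, adjusted p = 0.00218). ENSGACG00000007929, ENSGACG00000005217, ENSGACG00000003077 and ENSGACG00000005170 also rose, while ENSGACG00000014415 (-0.24) and ENSGACG00000013993 (-0.10) fell. Kept trials ran from 10 to 79 (median 38.5) in Paxton limnetic, 14 to 91 (median 79.5) in Paxton benthic and 11 to 72 (median 44.0) in Priest limnetic females. With trial number in the model, 51 members were lower than in Paxton benthic and 53 lower than in Priest limnetic females. Over all 20011 genes tested, 3059 and 1919 were called lower in the same fit. The rule used these contrasts, so nothing is read from the member counts.

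The membership itself moved with the averaging. With 1 library left out at a time, 53 to 60 of the 60 members were chosen again and 28 were chosen in all 51 repeats. With population medians in place of means, 30 of the 60 were chosen again, and with an allowed distance of 0.6 in place of 0.3, 34 were. Of the 5 highest scores, ENSGACG00000012456, ENSGACG00000012441, ENSGACG00000004703 and ENSGACG00000000517 were chosen in every repeat with a library left out and ENSGACG00000019292 in 47, while ENSGACG00000000015, at the threshold, was chosen in 33.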

How the data were processed

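The authors combined sequencing lanes, trimmed reads (Trimmomatic 0.33), aligned them to the Ensembl stickleback genome (BROAD S1) with BWA 0.7.7 and counted them per gene with bedtools 2.23.0. The deposited values are raw counts per gene for 53 brains. Total counts of the 51 kept libraries ranged from 23849743 to 52788436, so that 1 count was worth 0.0189 to 0.0419 CPM. Whether counting used strand was not given in the sources used here.

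Counts were tested with edgeR 4.0.16 (TMM, quasi-likelihood, Benjamini-Hochberg adjustment, threshold 0.1, filter on low counts by group). Populations were compared with treatment and population as terms, and treatments with a mean for each of 9 groups. An SE given with an edgeR log2 difference or slope is its absolute value divided by the square root of the F statistic of its test. The edgeR tests were first run on simulated data, whose outcome is not given here and supports nothing above. DESeq2 1.42.0, no filter, all 53 libraries, trial number as a covariate and each library left out were alternatives. Each library is 1 fish. A conspecific Paxton benthic library has trial 88 in one label and 89 in another, and 88 was used. The mean log2 TMM factor differed by under 0.1 between populations.

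Members and lists were chosen with earlier results of these data known. Genes were named for the 15 highest scores, for nearness to the threshold, for the widest and narrowest Paxton limnetic spread and for a call. Others named, linked or adjacent genes among them, were chosen after their values were seen. Lists by gene symbol and cell type markers could not be applied, because no identifier matched. No sequence is shown for the same reason.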

Additional observations from a re-analysis of the deposited data

Results flagged for a closer look

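Within each of the 9 groups, 8 members and the number of members over their midpoint were examined for a library far from the rest (Dixon's criterion at the 95% level). Of 81 groups, 7 held one. Chance gives about 1 in 20 for independent, normally distributed values. Some of the 8 genes were linked or were named for their spread, so the count is not read as an excess. ENSGACG00000012456 stood at 15.6 CPM in the heterospecific Paxton limnetic library of trial 70, above the next at 12.4. ENSGACG00000019292 stood at 1.35 CPM in the conspecific Paxton limnetic library of trial 10, above the next at 0.0533, and at 2.13 CPM in the heterospecific one of trial 70, above the next at 0.701. ENSGACG00000003836 stood at 365 CPM in the conspecific Priest limnetic library of trial 68, below the next at 669. In the same library, ENSGACG00000009622 stood at 41.5 CPM, above the next at 15.4. ENSGACG00000013918 stood at 539 CPM in the social control Paxton benthic library of trial 87, above the next at 357. ENSGACG00000001569 stood at 3.51 CPM in the heterospecific Paxton benthic library of trial 90, above the next at 1.40. Without trial 87, the heterospecific minus social control difference of ENSGACG00000013918 was a log2 of 1.93 (edgeR, adjusted p = 0.0382).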

How the results depend on the processing

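The counts of members lower than Paxton benthic (57) and Priest limnetic females (53) were 51 to 58 and 53 to 54 under the alternatives that kept every library or added the set-aside pair, and 54 to 59 and 50 to 56 with 1 library left out. Members called between Priest limnetic and Paxton benthic females numbered 3, but 1 with trial number as a covariate and 1 to 4 with a library left out. Treatment calls within Paxton limnetic females numbered 0, but 3 in DESeq2 and 0 to 7 with a library left out. Within Paxton benthic females, the 1 call became 0 with trial number as a covariate and 0 to 1 with a library left out, and within Priest limnetic females the count stayed at 0 in all of them. Interaction calls numbered 0, but 2 in DESeq2 and 0 to 1 with a library left out. For the conspecific minus heterospecific interactions, DESeq2 called 5 of 21723 genes against Paxton benthic and 2 of 21723 against Priest limnetic females. Trial slopes called 8 members, and 4 to 9 with a library left out. Repeating the rule kept 34 members at a distance of 0.6, 30 with medians and 53 to 60 with a library left out. The count of members with all Paxton limnetic libraries lowest stayed at 0. Genes lower in both comparisons near a member numbered 23 within 5 rows, 12 within 2 and 38 within 10, over fewer and more genes. Over all genes, DESeq2 called 47 genes for conspecific against social control and 44 for conspecific against heterospecific in Paxton limnetic females, against 15 and 0 in edgeR. The causes were not tested. Neighbours by genome position were not run. No paired analysis was possible because trial numbers were not shared between treatments.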
